A study of Caenorhabditis elegans with 12 samples.

Results

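The genes hat-1, bet-1, trr-1 and pbrm-1 of Caenorhabditis elegans encode proteins that acetylate histones, hold an acetylating complex together or bind acetylated histones. They were chosen by name among histone acetyltransferase and bromodomain genes, and they are 4 of the 3750 genes that the deposited tables list for both marks studied and of the 7553 listed for either. The study mapped acetylation of histone H4 at lysine 5 (H4K5ac) or lysine 8 (H4K8ac) by ChIP-seq, the sequencing of DNA bound to immunoprecipitated chromatin, from whole adults of the wild-type Bristol N2 strain kept at 20 °C on the Escherichia coli strain OP50. The 4 groups were H4K5ac IP (DNA pulled down with an antibody to the mark), H4K5ac input (the same kind of chromatin without pull-down), H4K8ac IP and H4K8ac input, with 3 libraries each. No group was mutated or treated otherwise.

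Histone acetyltransferases move an acetyl group onto lysines of histone tails, and bromodomains are protein pockets that bind such acetylated lysines. hat-1 encodes the worm counterpart of HAT1, a type B enzyme best known for acetylating newly made histone H4, at sites that include the one read by H4K5ac, before it is placed on DNA. trr-1 encodes the counterpart of TRRAP, a very large scaffold without enzyme activity that carries the MYST-type H4 acetyltransferase complex (NuA4 in yeast, TIP60 in mammals). bet-1 encodes a BET protein with paired bromodomains that binds acetylated H4 and maintains cell fates in the worm. pbrm-1 encodes polybromo, a protein with many bromodomains that marks the PBAF form of the SWI/SNF nucleosome remodeller.

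Listed regions of both marks lay over all 4 genes, at 3 of them across the transcription start site (TSS) and most of the gene body. Each of the 4 is the named gene of a region in both tables, so a region of each mark at or near it was given beforehand. Only the place and length of the regions are described. Coordinates are those of the deposited tables, in WBcel235, and gene spans are from RefSeq for that assembly. hat-1 (M03C11.4) occupies chromosome III 10405248 to 10407248 on the minus strand, and the tables list exactly the same region for both marks, chromosome III 10403001 to 10410999. That region is 7999 bp long, spans the TSS, covers 100% of the 2001 bp gene and is annotated to exon 2 of 4. pbrm-1 (C26C6.1) occupies chromosome I 7495437 to 7503577 on the plus strand and was also covered to 100%, by a H4K5ac region at 7488201 to 7504399 (16199 bp, exon 2 of 15) and a H4K8ac region at 7488201 to 7505799 (17599 bp, exon 3 of 15). The pbrm-1 regions start at the same base and differ in their far end, so that the H4K5ac region fills 92% of the H4K8ac one.

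trr-1 (C47D12.1), the longest of the 4 genes with 14359 bp, occupies chromosome II 11661569 to 11675927 on the minus strand. Its H4K5ac region runs over 11666601 to 11681799 (15199 bp, exon 5 of 22) and its H4K8ac region over 11666601 to 11682599 (15999 bp, exon 3 of 22), both across the TSS. A further region over the 3′ part of trr-1 was named for another gene in each table, C47D12.9 for H4K5ac (11660001 to 11665799) and nep-1 for H4K8ac (11646001 to 11665799). With them, 94.4% of trr-1 was covered in both marks. The regions of pbrm-1 and trr-1 were long for these lists: the H4K5ac ones exceeded 94.9% and 93.9% of all H4K5ac regions in length, and the H4K8ac ones 94.2% and 92.8% of all H4K8ac regions. The hat-1 region exceeded 78.3% of H4K5ac and 75.7% of H4K8ac regions.

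bet-1 (Y119C1B.8) differed from the other 3 genes in where its regions lay. The gene occupies chromosome I 4525961 to 4534805 on the minus strand and is 8845 bp long. Its only H4K5ac region, at 4530001 to 4531799 (1799 bp, intron 6 of 13), starts 3006 bp and ends 4804 bp downstream of the TSS and covers 20.3% of the gene. H4K8ac had a region of 5799 bp across the TSS at 4533001 to 4538799, annotated as intergenic, and another of 2999 bp in the body at 4529001 to 4531999 (intron 7 of 13), which together cover 54.3%. All of the H4K5ac region lay inside the second H4K8ac region. The H4K5ac list does not show that the mark was missing at the bet-1 TSS. Its regions carry running numbers along the chromosome, and number 5083, which falls between the bet-1 region (5082) and that of Y119C1B.1 (5084, from 4552801), is among 2868 numbers not listed.

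**Figure D1:**
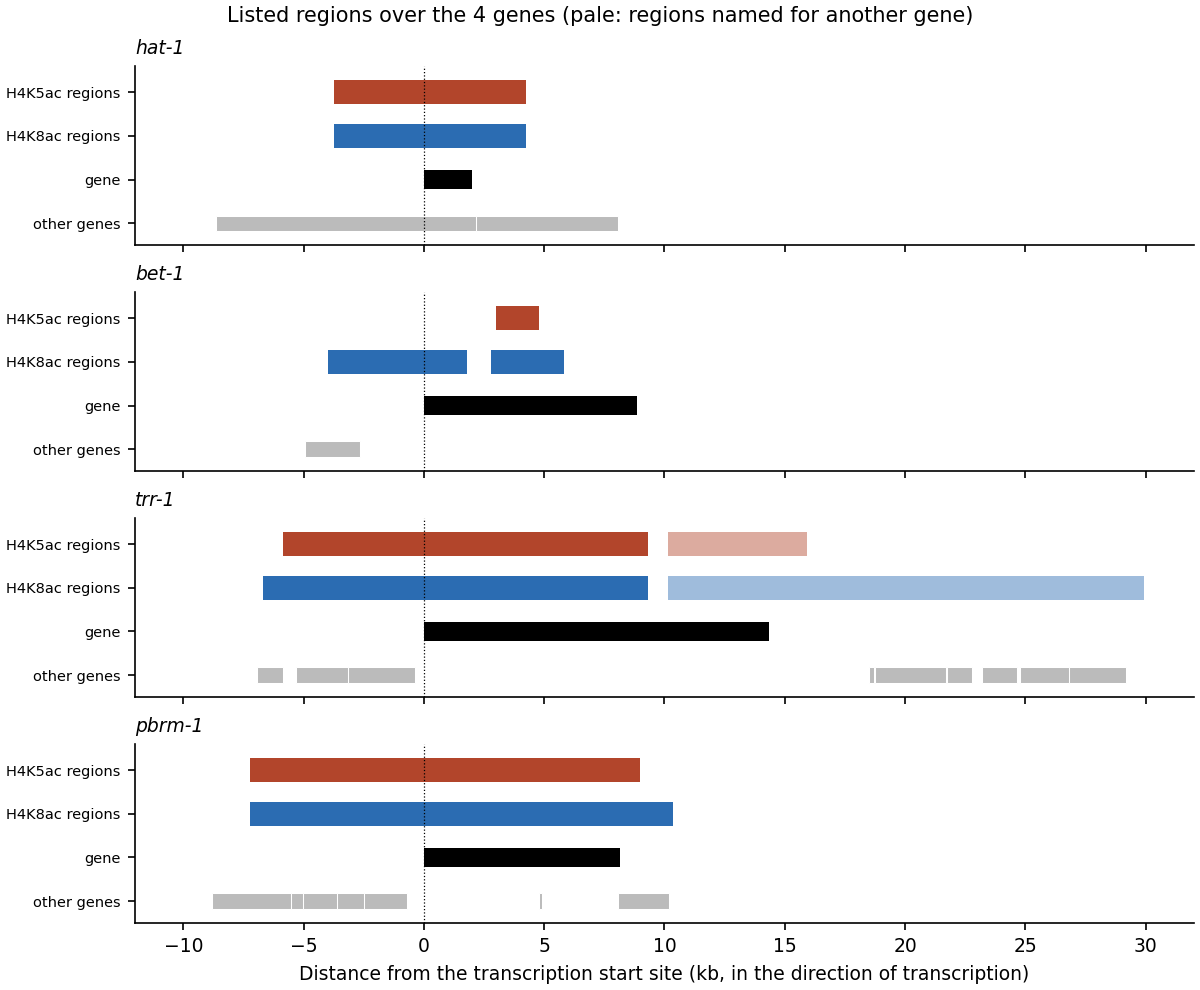
Listed H4K5ac and H4K8ac regions over hat-1, bet-1, trr-1 and pbrm-1, drawn by distance from each gene's TSS in kb in the direction of transcription, with the gene in black, other annotated genes under the regions in grey, and regions named for another gene in a pale colour. At bet-1 the H4K5ac region lies 3006 to 4804 bp inside the gene, while the other 3 genes have a region across the TSS in both marks.

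One gene is named per region, so the tables give no count for most genes beside the 4. The deposited count is 1 value per gene, repeated on each of its regions, and it was unrelated to how long a region is (across regions, Spearman correlation of mean input count and length 0.0106 in H4K5ac and -0.00373 in H4K8ac). The sources used here do not give the bases over which it was taken, so levels are compared between libraries of a gene and not between genes. The whole of hat-1 lies inside the span of M03C11.3 (chromosome III 10405070 to 10415887), and sequenced chromatin does not tell the strand, so the reads of hat-1 and M03C11.3 cannot be told apart. The TSS of trr-1 lies 379 bp from C47D12.2 and that of pbrm-1 701 bp from T28F4.4, while no other annotated gene lies within 2 kb of the bet-1 TSS. None of M03C11.3, C47D12.2 and T28F4.4 is the named gene of a region in either table, and their part in the values of hat-1, trr-1 and pbrm-1 was not tested.

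Total estimated counts, summed over all genes listed for the mark of the library, ranged from 5460429 to 9156392 per library. The 4 genes had 883.5 to 3445 estimated counts in each library. Replicates of every group differed beyond counting noise (chi-square per degree of freedom 1.31 to 24), most of all H4K5ac IP replicates 1 and 3. Log2 IP over input was also most spread across genes in H4K5ac replicate 1 (SD over 3750 genes 0.46, against 0.37 in replicate 2 and 0.31 in replicate 3), so values without that IP are given beside the H4K5ac results. The labels do not say whether replicates came from separate cultures, so p-values cover no more than the spread of these samples, and that spread may be technical. In whole worms, fewer cells with the mark at a gene and less of the mark per cell cannot be told apart. Folds below are relative to the typical gene of the 3750, each of which is the named gene of a listed region in both marks. A fold of 0 on the log2 scale therefore does not mean absence of the mark.

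The IP libraries held more reads than their inputs at all 4 genes in both marks, by 1.46 to 1.64 times for H4K5ac and 1.3 to 1.5 times for H4K8ac. Levels are in CPM, counts relative to the summed counts of the library over the 3750 genes listed for both marks. They were scaled by TMM, a method that sets the typical gene equal between libraries.

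For hat-1, the acetyltransferase gene, H4K5ac IP gave 430.3, 376.8 and 330.0 CPM in replicates 1 to 3, against 241.1, 225.6 and 228.7 CPM in H4K5ac input. H4K8ac IP gave 339.3, 288.2 and 305.3 CPM, against 241.6, 245.7 and 228.7 CPM in H4K8ac input. Every IP library stood above every input library in both marks, with H4K5ac IP replicate 1 the highest. The H4K5ac IPs averaged 379 ± 50.2 CPM and their inputs 232 ± 8.21 CPM (SD, n = 3 each), so the IPs varied more among themselves than the inputs did. The log2 fold was 0.71 ± 0.08 for H4K5ac (SE; edgeR quasi-likelihood test, Benjamini-Hochberg adjusted p = 1.08e-06) and 0.38 ± 0.08 for H4K8ac (edgeR adjusted p = 0.000926). hat-1 thus ranked 243rd of the 3750 genes for H4K5ac, the first of the 4, and 561st for H4K8ac, the last of the 4.

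For trr-1, the scaffold gene, H4K5ac IP gave 499.0, 554.6 and 513.0 CPM, against 373.7, 344.7 and 305.3 CPM in H4K5ac input. H4K8ac IP gave 522.2, 489.3 and 509.2 CPM, against 341.3, 328.6 and 341.3 CPM in H4K8ac input. IP and input did not overlap in either mark, and H4K8ac was the steadier of the marks, with SDs of 16.6 CPM in the IPs and 7.33 CPM in the inputs, against 28.9 and 34.4 CPM for H4K5ac. The log2 fold was 0.61 ± 0.08 for H4K5ac (SE; edgeR adjusted p = 6.17e-06) and 0.59 ± 0.08 for H4K8ac (edgeR adjusted p = 1.96e-05). In H4K8ac trr-1 ranked 225th, with 5.97% of the genes higher, and in H4K5ac 359th.

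For bet-1, the BET gene, H4K5ac IP gave 578.6, 475.4 and 464.2 CPM, against 332.7, 323.3 and 325.4 CPM in H4K5ac input. H4K8ac IP gave 450.4, 397.4 and 432.5 CPM, against 319.2, 316.4 and 331.5 CPM in H4K8ac input. The groups did not overlap, the inputs of both marks lay between 316.4 and 332.7 CPM, and H4K5ac IP replicate 1 stood above the other libraries. The log2 fold was 0.63 ± 0.09 for H4K5ac (SE; edgeR adjusted p = 5.99e-06) and 0.41 ± 0.08 for H4K8ac (edgeR adjusted p = 0.000723).

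For pbrm-1, the polybromo gene, H4K5ac IP gave 422.9, 457.3 and 439.8 CPM, against 316.8, 304.9 and 283.5 CPM in H4K5ac input. H4K8ac IP gave 447.6, 379.8 and 405.2 CPM, against 303.5, 296.7 and 309.4 CPM in H4K8ac input. Again no IP overlapped an input, and the IPs of the marks overlapped each other, with H4K5ac IP replicate 2 the highest and H4K8ac IP replicate 2 the lowest. The log2 fold was 0.54 ± 0.07 for H4K5ac (SE; edgeR adjusted p = 6.72e-06) and 0.44 ± 0.07 for H4K8ac (edgeR adjusted p = 0.000107).

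**Figure D2:**
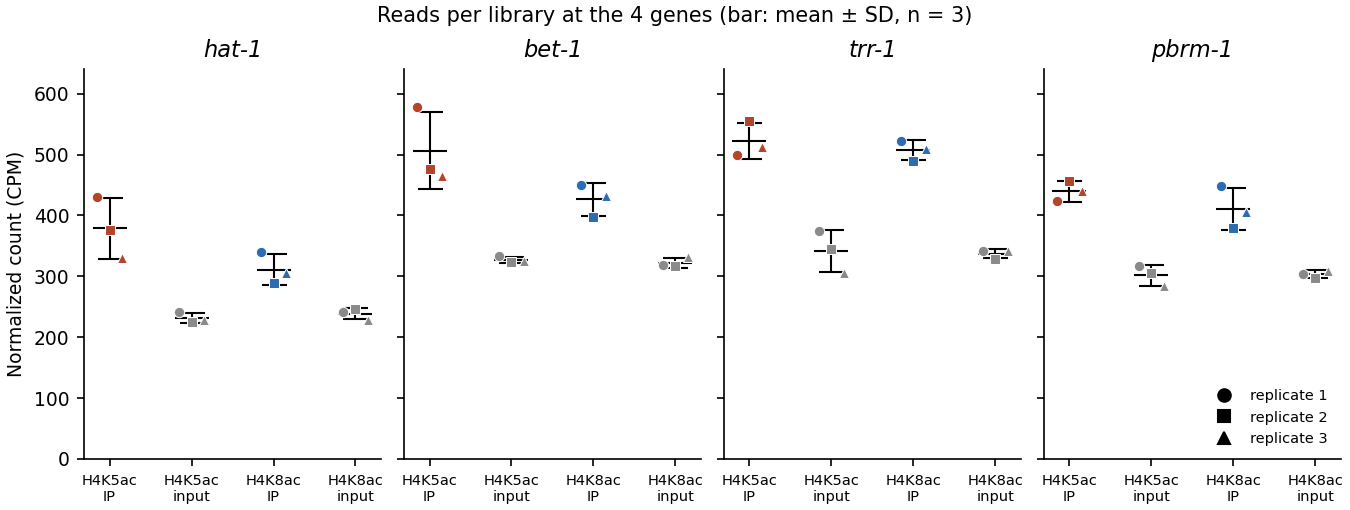
Normalized count (CPM) at hat-1, bet-1, trr-1 and pbrm-1 in each of the 12 libraries, by group, with symbols for the replicate number and bars for the mean and SD of 3 libraries. In each gene and mark all IP libraries lie above all input libraries, and the inputs of the marks differ by at most 0.04 on the log2 scale.

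All 4 genes were called higher in IP than in input in both marks, where 33.8% of the 3750 genes were called higher and 34.3% lower for H4K5ac, and 30.7% higher and 24% lower for H4K8ac. With the table of each mark fitted by itself all 4 were again called higher, with log2 folds of 0.58 to 0.75 for H4K5ac (32.2% of 5632 genes higher and 29.5% lower) and 0.40 to 0.61 for H4K8ac (31.2% of 5671 genes higher and 33.6% lower). The IPs of all 4 also lay above all inputs, which held for 34.3% of genes in H4K5ac and 35.9% in H4K8ac. Between 6.45% (hat-1) and 12.3% (pbrm-1) of genes had a higher H4K5ac fold than these genes, and between 5.97% (trr-1) and 14.9% (hat-1) a higher H4K8ac fold. The folds over all 3750 genes ran from -0.42 to 1.88 around a median of -0.01 for H4K5ac and from -0.37 to 1.47 around 0.00 for H4K8ac. The 4 genes were therefore in the upper part of that range and far from its top. Without H4K5ac IP replicate 1 the H4K5ac log2 folds were 0.61 for hat-1, 0.52 for bet-1, 0.64 for trr-1 and 0.57 for pbrm-1, with edgeR adjusted p of at most 1.07e-06. Scaling by total count, here the summed counts over the 3750 genes, moves the median of all genes to -0.13 for H4K5ac and -0.09 for H4K8ac. The log2 folds of the 4 were then 0.43 to 0.59 for H4K5ac and 0.30 to 0.51 for H4K8ac. A further scaling was to the least enriched 25% of genes, those with the lowest mean IP over input of both marks in these data. It moves the medians to 0.29 and 0.23, and the log2 folds of the 4 were then 0.85 to 1.02 and 0.62 to 0.82. Such scaling also changes the share of genes called, to 957 higher and 1770 lower for H4K5ac and 901 higher and 1393 lower for H4K8ac by total count, and to 2379 higher and 0 lower and 2119 higher and 1 lower by the least enriched genes.

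The inputs, which carry no selection for a mark, did not differ detectably between the marks at these genes. H4K5ac input minus H4K8ac input was -0.04 for hat-1, 0.02 for bet-1, 0.02 for trr-1 and -0.01 for pbrm-1 on the log2 scale (edgeR adjusted p 0.948 to 0.994). In this comparison 0% of the 3750 genes passed in edgeR, 0 passed in DESeq2, and 180 had an unadjusted p under 0.05.

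The H4K5ac and H4K8ac folds of the same gene were not told apart by the test of their difference. The H4K5ac log2 fold minus the H4K8ac one was 0.33 ± 0.12 for hat-1 (SE; 95% interval 0.08 to 0.57; edgeR adjusted p = 0.243), the largest of the 4. It was 0.22 ± 0.12 for bet-1 (-0.03 to 0.48; edgeR adjusted p = 0.378), 0.10 ± 0.10 for pbrm-1 (-0.11 to 0.32; edgeR adjusted p = 0.628) and 0.02 ± 0.12 for trr-1 (-0.22 to 0.27; edgeR adjusted p = 0.939). The intervals, which are not adjusted for the number of genes, allow a fold up to 0.57 higher on the log2 scale in H4K5ac for hat-1 and do not show that the marks are alike at any of the 4. Of all 3750 genes 0% passed this test in edgeR, 549 had an unadjusted p under 0.05, hat-1 among them with 0.011, and DESeq2 called 41, none of them among the 4. With each of the 12 libraries left out in turn, hat-1 passed in 1 case, with 0.43 and an edgeR adjusted p of 0.0217 without H4K5ac IP replicate 3, a fit that called 193 genes. It was lowest at 0.23 (edgeR adjusted p = 0.311) without H4K5ac IP replicate 1. The bet-1 difference was also lowest without that library (0.12, edgeR adjusted p = 0.622) and ranged up to 0.29. That of pbrm-1 ran from 0.05 without H4K8ac IP replicate 2 to 0.18 without H4K8ac IP replicate 1, and that of trr-1 from -0.05 without H4K5ac input replicate 3 to 0.09 without H4K5ac input replicate 1, and none of these 3 genes passed in any such fit.

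Taken replicate by replicate, with each IP over the input of the same number, hat-1 and bet-1 had their highest H4K5ac value in the replicate where trr-1 and pbrm-1 had their lowest. Log2 H4K5ac IP over input of hat-1 was 0.84, 0.74 and 0.53 in replicates 1 to 3, and that of bet-1 was 0.80, 0.56 and 0.51. The scaffold gene trr-1 had 0.42, 0.69 and 0.75, and pbrm-1 had 0.42, 0.58 and 0.63. So hat-1 and bet-1 were highest in replicate 1, the replicate with the widest spread over all genes, while trr-1 and pbrm-1 were lowest in it. The mean over the 4 genes hardly differed, at 0.62, 0.64 and 0.61 in the 3 replicates. The trr-1 inputs were also highest in replicate 1, with 373.7 CPM, and lowest in replicate 3, with 305.3 CPM. Over the mean input of the mark in place of the same-numbered one, replicate 1 remained the highest for hat-1 (0.89) and bet-1 (0.82) and the lowest for trr-1 (0.55) and pbrm-1 (0.49). The SD over H4K5ac replicates was then 0.08 for trr-1 and 0.06 for pbrm-1, against 0.18 and 0.11 with the same-numbered input. For H4K8ac, hat-1 had 0.49, 0.23 and 0.42, bet-1 0.50, 0.33 and 0.38, pbrm-1 0.56, 0.36 and 0.39, and trr-1 0.61, 0.57 and 0.58. There hat-1, bet-1 and pbrm-1 were lowest in replicate 2, with trr-1 between 0.57 and 0.61 in all 3 (SD 0.02, and 0.05 over the mean input). Replicate 2 had the narrowest spread over all genes (SD 0.25, against 0.35 in replicate 1 and 0.29 in replicate 3).

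**Figure D3:**
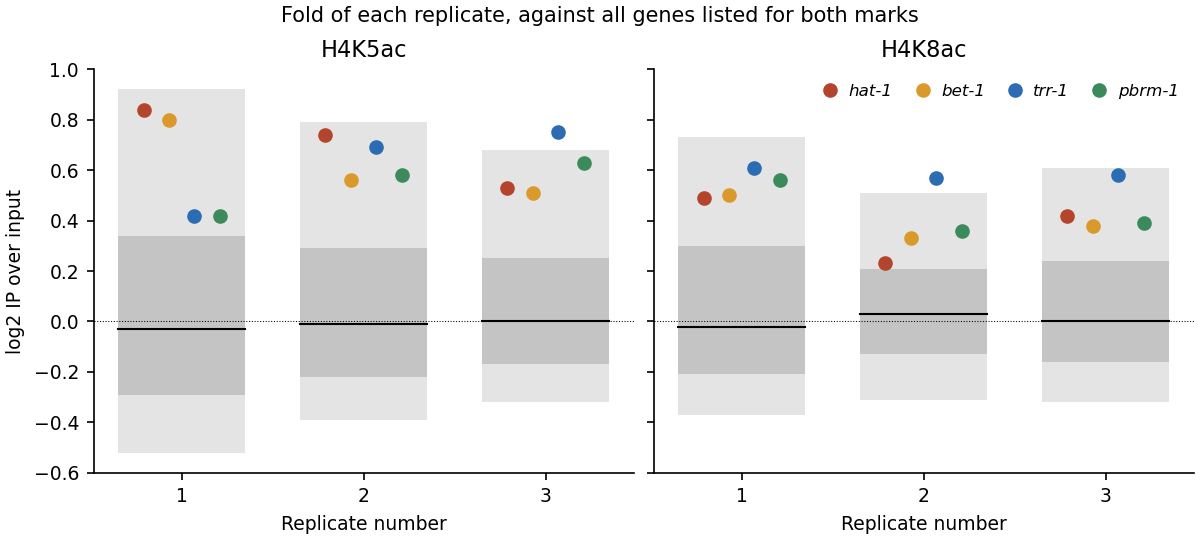
Log2 IP over input of hat-1, bet-1, trr-1 and pbrm-1 in each replicate of each mark, over bands for the 3750 genes listed for both marks (dark band from the 25th to the 75th percentile, pale band from the 5th to the 95th, line at the median). The 4 genes lie above the dark band in all 6 columns, and trr-1 changes least across the H4K8ac replicates.

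Among the 4 genes, trr-1 led for H4K8ac by more than the spread between replicates, and the rest of the order lay within that spread or close to it. For H4K8ac trr-1 stood above the other 3 in 3 of 3 replicates. The mean difference in log2 IP over input was -0.21 ± 0.12 for hat-1 minus trr-1, -0.19 ± 0.06 for bet-1 minus trr-1 and 0.15 ± 0.09 for trr-1 minus pbrm-1 (SD, n = 3). Below it, pbrm-1, bet-1 and hat-1 differed from each other by at most 0.06 in the mean. For hat-1 minus pbrm-1 this was less than the SD of 0.08 between replicates. Over the mean input, however, pbrm-1 stood above hat-1 in 3 of 3 (-0.06 ± 0.01, hat-1 minus pbrm-1). For bet-1 minus pbrm-1 the mean was -0.03 ± 0.03, with bet-1 higher in 0 of 3 replicates, and in 1 of 3 over the mean input. For H4K5ac the mean order was hat-1, bet-1, trr-1 and pbrm-1, but the differences of hat-1 and bet-1 from trr-1 and pbrm-1 had means of 0.00 to 0.16 and SDs of 0.26 to 0.33, with both signs among the replicates. hat-1 stood above bet-1 by 0.02 to 0.18 and trr-1 stood level with or above pbrm-1 by 0.00 to 0.12 in the 3 replicates. These pairwise differences were described and not tested.

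Genes listed for both marks around the 4 had lower folds than the 4 themselves, as did most of all 3750 genes. Within 50 kb lay 2 other genes listed for both marks at hat-1, 3 at bet-1, 2 at trr-1 and 4 at pbrm-1. None exceeded its neighbour among the 4 in either mark. Of all 3750 genes, 6.45% to 12.3% had a higher H4K5ac fold than the single members, and 5.97% to 14.9% a higher H4K8ac fold. So few neighbours therefore do not set the 4 apart from their surroundings in particular. Near hat-1, M03C11.10 had log2 folds of 0.23 for H4K5ac and 0.21 for H4K8ac and H04D03.2 had -0.07 and 0.03. Near bet-1 the highest was mrpl-19, a mitochondrial ribosomal protein gene, with 0.20 and -0.03. Near trr-1, F13D12.9 reached 0.34 and 0.48 and ZK20.10 was at -0.31 and -0.19. Around pbrm-1 the H4K5ac folds ran from -0.21 (lars-2, a leucyl-tRNA synthetase gene) to 0.42 (H15M21.1), and the H4K8ac folds from -0.21 (asic-2) to 0.25 (dcp-66). The genes that name the second regions over trr-1 were each listed for 1 mark. Fitted in the table of that mark by itself, C47D12.9 was at -0.02 ± 0.09 for H4K5ac (SE; edgeR adjusted p = 0.829) and nep-1 at -0.04 ± 0.06 for H4K8ac (edgeR adjusted p = 0.615), against 0.65 ± 0.10 and 0.61 ± 0.08 for trr-1 in the same fits. coa-7, which lies 24779 bp from the trr-1 TSS under the nep-1 region and is listed for H4K5ac alone, was level with trr-1 in the H4K5ac table by itself (0.63 ± 0.09, edgeR adjusted p = 0.000134). The regions named for C47D12.9 and nep-1 stood at 3217 of 6432 and 3190 of 6397 in lists ordered by IP over input. Those named for trr-1 stood at 580 and 321. These places follow the counts of the naming gene, so they give no separate value for the regions over the 3′ part of trr-1.

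The genes most like each of the 4 were taken as those with the smallest Euclidean distance over the 6 values of log2 IP over input (3 replicates of 2 marks), as a description. Nearest to hat-1 were mrpl-12, a mitochondrial ribosomal protein gene (distance 0.101), rpl-21, a ribosomal protein gene (0.118), and ssl-1 (0.153). Nearest to bet-1 were Y71F9B.1 (0.0811), mrpl-20 (0.0848) and the coatomer gene copd-1 (0.112). Nearest to trr-1 were saps-1 (0.129), dnj-5 (0.226) and K11D9.5 (0.242). Nearest to pbrm-1 were F14E5.2 (0.145), the profilin gene pfn-1 (0.16) and gei-6 (0.171). Among themselves, bet-1 was 19th nearest to hat-1 and hat-1 52nd nearest to bet-1, at a distance of 0.215. pbrm-1 was 41st nearest to trr-1 and trr-1 123rd nearest to pbrm-1, at 0.33. trr-1 and hat-1 were farthest apart of the 4, at 0.621.

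The 4 genes were then set beside related genes, in 5 lists of acetyltransferase enzymes, bromodomain proteins, subunits of TRRAP and acetyltransferase complexes, SWI/SNF subunits, and histone binding partners of HAT1-type enzymes. Of 44 names, 40 matched the gene table, and a H4K5ac region overlapped 37 of them by at least 1 bp, as did a H4K8ac region. The share of all annotated genes that listed regions overlap was not counted. The overlap of these genes, and that of the 4, therefore has no background to be compared with. No listed region of H4K5ac or H4K8ac met lsy-12, taf-1 or ing-3, which does not show that the marks were absent. Only 15 of the 40 were the named gene of a region in both tables and could be tested there. With the 4 genes counted in, 10 of these 15 were higher and 1 lower for H4K5ac (median log2 fold 0.54, all 3750 genes -0.01), and 10 higher and 2 lower for H4K8ac (median 0.38, all genes 0.00). With them left out, 6 of 11 were higher and 1 lower for H4K5ac (median 0.23), and 6 higher and 2 lower for H4K8ac (median 0.30). Of all 3750 genes, 33.8% were called higher and 34.3% lower for H4K5ac, and 30.7% higher and 24% lower for H4K8ac. The lists and the 4 genes were chosen with results of these data known, so the counts are a description.

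Among the related genes that both tables list, H4K5ac folds were highest at the SWI/SNF genes let-526 and dpff-1, and H4K8ac folds at dpff-1 and rba-1. let-526, the ARID1-type subunit of the BAF form, had 0.87 ± 0.08 for H4K5ac (SE; edgeR adjusted p = 6.51e-08) and 0.43 ± 0.08 for H4K8ac (edgeR adjusted p = 0.000176). dpff-1, a double PHD finger subunit gene, had 0.83 ± 0.08 and 0.64 ± 0.08 (edgeR adjusted p = 2.95e-07 for H4K5ac and 1.05e-05 for H4K8ac). swsn-1, a core subunit gene, was higher in both marks with 0.50 ± 0.09 (edgeR adjusted p = 0.000122) and 0.30 ± 0.09 (edgeR adjusted p = 0.00984), of which the H4K8ac call was lost without H4K8ac IP replicate 1 (0.20, edgeR adjusted p = 0.0913). phf-10, a PBAF subunit gene, was higher for H4K5ac (0.23 ± 0.08, edgeR adjusted p = 0.018) and had 0.05 ± 0.08 for H4K8ac. Its H4K5ac value was 0.11, and not called, without H4K5ac IP replicate 1 and under total count scaling, and 0.20 (edgeR adjusted p = 0.0641) without H4K5ac input replicate 1. swsn-3 had 0.11 ± 0.08 for H4K5ac (edgeR adjusted p = 0.218) and was lower for H4K8ac (-0.30 ± 0.08, edgeR adjusted p = 0.00443), a call that ended when scaled to the least enriched genes (-0.07). With pbrm-1, 5 of 6 measured SWI/SNF genes were higher and 0 lower for H4K5ac, against 33.8% higher and 34.3% lower of all 3750 genes. For H4K8ac 4 were higher and 1 lower, against 30.7% and 24% of all genes. Scaled to the least enriched genes, swsn-3 was higher for H4K5ac too (0.42) and phf-10 for H4K8ac too (0.28, edgeR adjusted p = 0.0419). None was then lower for H4K8ac, but that scaling called 2119 of all genes higher and 1 lower for H4K8ac. For H4K5ac it called 2379 higher and 0 lower.

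Partners of trr-1 and hat-1 went both ways. ssl-1, which encodes the EP400-type ATPase placed in the NuA4/TIP60 complex, was higher in both marks (0.65 ± 0.09, edgeR adjusted p = 4.9e-06 for H4K5ac; 0.43 ± 0.09, edgeR adjusted p = 0.000554 for H4K8ac). mys-1, which encodes the TIP60-type acetyltransferase of the complex that TRRAP carries, was lower than the typical listed gene, with -0.20 ± 0.07 for H4K5ac (edgeR adjusted p = 0.0116) and -0.20 ± 0.06 for H4K8ac (edgeR adjusted p = 0.0159). That direction turned when scaled to the least enriched genes (0.10 for H4K5ac and 0.04 for H4K8ac, neither called). The H4K5ac call was lost in the H4K5ac table fitted by itself (-0.16, edgeR adjusted p = 0.053), and the H4K8ac call without H4K8ac IP replicate 2 (-0.15, edgeR adjusted p = 0.0574) or H4K8ac input replicate 2 (-0.18, edgeR adjusted p = 0.0622). rba-1, one of a pair of adjacent RbAp46-type genes whose products bind H4 together with HAT1 in other species, was higher in both marks (0.74 ± 0.06, edgeR adjusted p = 3.43e-08 for H4K5ac; 0.60 ± 0.06, edgeR adjusted p = 1.78e-06 for H4K8ac). The other of the pair, lin-53, lies under regions of both marks and is the named gene of none.

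Of the remaining enzymes and bromodomain genes tested, elpc-3 was called for H4K8ac, and mys-2 and lin-49 were called in neither mark in the TMM-scaled fit of all 12 samples. mys-2, of the MYST enzyme family, had 0.08 ± 0.06 for H4K5ac and 0.13 ± 0.06 for H4K8ac (edgeR adjusted p = 0.259 and 0.0677), and was called higher for H4K8ac without H4K8ac IP replicate 2 (0.15, edgeR adjusted p = 0.0398) and in the H4K8ac table by itself (0.15, edgeR adjusted p = 0.0418). Its H4K8ac value was 0.07 (edgeR adjusted p = 0.309) without H4K8ac IP replicate 1 and 0.05 (edgeR adjusted p = 0.511) under total count scaling. lin-49, a BRPF-type bromodomain gene, had 0.09 ± 0.08 and 0.06 ± 0.08 (edgeR adjusted p = 0.287 and 0.526), and was called higher in both when scaled to the least enriched genes (0.40, edgeR adjusted p = 0.00146 for H4K5ac and 0.29, edgeR adjusted p = 0.0133 for H4K8ac). elpc-3, which encodes the catalytic subunit of Elongator and is named here after its values were seen, had 0.05 ± 0.06 for H4K5ac (edgeR adjusted p = 0.493) and was higher for H4K8ac (0.35 ± 0.06, edgeR adjusted p = 0.000191). Of the 4 acetyltransferase enzymes measured, hat-1 was the single one called higher for H4K5ac, except that mys-2 (0.38) and elpc-3 (0.36) were also called when scaled to the least enriched genes. For H4K8ac hat-1 and elpc-3 were called higher, and mys-2 (0.36) joined them under that scaling. Of all 3750 genes, 33.8% were called higher for H4K5ac and 30.7% for H4K8ac with TMM, and 2379 and 2119 genes when scaled to the least enriched genes.

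**Figure D4:**
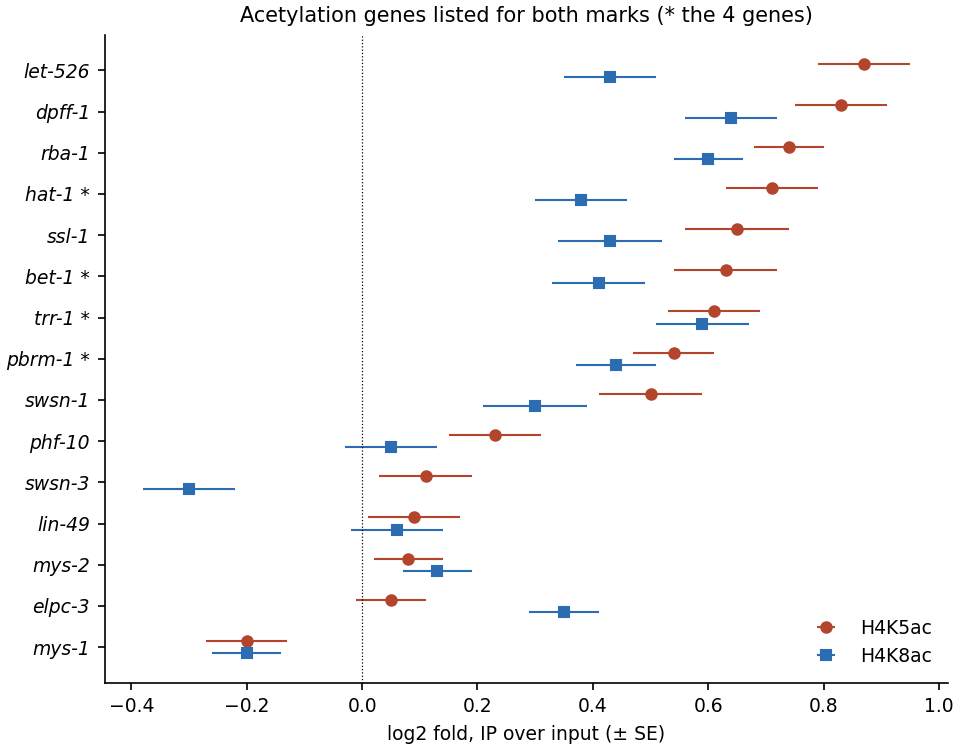
Log2 fold of IP over input with its SE for the 15 genes of the acetylation lists that are listed for both marks, circles for H4K5ac and squares for H4K8ac, ordered by the H4K5ac fold, with asterisks at hat-1, bet-1, trr-1 and pbrm-1. let-526, dpff-1 and rba-1 lie above hat-1 for H4K5ac, and mys-1 lies below 0 in both marks.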

How the data were processed

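Chromatin from whole adult N2 worms was measured in 12 libraries, 3 IP and 3 input for each of H4K5ac and H4K8ac, grouped and numbered by their titles. MACS2 2.1.0, Bowtie 1.1.2, Trimmomatic 0.33 and bcl2fastq 2.17 are named, with no role, in the submitters' processing notes, as are hg38 and WBcel235. The authors deposited, per library, estimated counts per gene on a list of regions shared by the 6 libraries of a mark. The sources used here do not give how regions were called or reads counted. Lists are ordered by decreasing IP over input. Gene names altered to dates (7 for H4K5ac and 6 for H4K8ac) were read from their transcripts.

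Estimated counts were rounded. The 3750 genes in both tables were fitted over all 12 samples with edgeR 4.0.16 (R 4.3.3), TMM scaling, 4 group means and the quasi-likelihood test, with Benjamini-Hochberg adjustment over all genes and a threshold of 0.05. The low-count filter removed 0 genes, and the common dispersion was 0.00379. Per-replicate folds used a prior count of 0.5. The fit was tested on simulated counts in which a small part of the genes changed, up and down alike, in H4K5ac IP alone. Far more genes were called in the real data, so that test does not check the TMM scaling used here. Alternatives were other scalings, no filter, DESeq2 1.42.0, each table by itself, a replicate block and leaving out each sample. Replicate numbers come from the titles. Deviations of same-numbered IP and input correlated at 0.286, 0.114 and 0.233 for H4K5ac and at -0.259, -0.152 and 0.073 for H4K8ac. Unlike numbers reached 0.153 for H4K5ac (IP replicate 2 with input replicate 3) and 0.273 for H4K8ac (IP replicate 2 with input replicate 1). The correlations therefore do not settle whether the numbers pair IP and input. With 3 samples a group, a library left out leaves 2.

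The 4 genes and the lists were chosen with earlier results of these data known. Named list genes were those measured in both tables, at most 10 beside the 4, by absolute H4K5ac log2 fold. Neighbours were genes under a region of the 4 or within 2 kb of their TSS, and the 3 nearest genes by distance were named. The list names mys-3, flt-1, swsn-2.1 and swsn-8 did not match the gene table. No sequence was used here.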

Additional observations from a re-analysis of the deposited data

How the results depend on the processing

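Across 13 alternatives per mark, hat-1, bet-1, trr-1 and pbrm-1 stayed higher in IP than in input and past the threshold, with log2 folds of 0.43 to 1.02 for H4K5ac (highest edgeR adjusted p = 0.000251) and 0.30 to 0.82 for H4K8ac (highest 0.0107, hat-1 without H4K8ac IP replicate 1). Not all of the 13 are separate checks. The low-count filter removed 0 genes, so the fit without it repeats the fit of all samples. The highest folds, 1.02 and 0.82, came from scaling to the least enriched genes, which moves the median of all genes up. The difference between the marks was 0.23 to 0.43 for hat-1 when a sample was left out. The count of genes called in that difference was 0 in the fit of all samples, 41 with DESeq2, and 0 to 193 when a sample was left out (7 without H4K5ac IP replicate 1, 193 without H4K5ac IP replicate 3). Scaled to the least enriched 25% of genes, mys-1 turned to 0.10 for H4K5ac and 0.04 for H4K8ac. That scaling called 2379 of the 3750 genes higher and 0 lower for H4K5ac, and 2119 higher and 1 lower for H4K8ac. Its reference genes were picked for low IP over input in these same data, so few genes can be called lower under it. The list genes other than the 4 then gave 10 higher and 0 lower for H4K5ac and 9 higher and 0 lower for H4K8ac. Each table fitted by itself, with more genes tested, gave 10 of these list genes higher for H4K5ac, 11 for H4K8ac, and 3676 genes called in all for H4K8ac. The list genes lower for H4K8ac were 1 to 2 when a sample was left out. The cause of the changes under the other settings was not tested. With overlap of at least 0.5 of the gene's length required, 3 of the 4 genes lay under H4K5ac regions and 4 under H4K8ac regions. Of the 40 list genes, 31 and 30 did. A further rule kept the upper 0.5 of the regions by IP over input of the naming gene. All 4 genes passed it, which was fixed beforehand, since regions named for them stand within the first 12.7% of the lists. Of the 40 list genes, 35 lay under such H4K5ac regions and 33 under such H4K8ac regions. The share of all annotated genes under these rules was not counted. With a replicate block, 2559 genes were called for H4K5ac, 2079 for H4K8ac and 0 in the difference. The block changed no call of the 4 or of the list genes named. Whether the replicate numbers pair IP and input was not settled for either mark. Each of the 4 genes had at least 883.5 estimated counts per library; how much of the spread is counting error was not tested for single genes.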

Other observations

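Related genes listed for 1 mark only could be fitted in the table of that mark by itself, and were named after their values were seen. In those fits, with the 4 genes left out, 10 of 17 list genes were higher and 1 lower for H4K5ac (median log2 fold 0.28, all 5632 genes -0.02; 32.2% of genes higher and 29.5% lower), and 11 of 16 were higher and 2 lower for H4K8ac (median 0.35, all 5671 genes -0.04; 31.2% higher and 33.6% lower). For H4K5ac the highest was ekl-4, the gene of a DMAP1-type subunit of the NuA4/TIP60 complex, with 1.19 ± 0.14 (SE, 3 libraries per group; edgeR adjusted p = 4.58e-05). Next came ada-2, an adaptor of acetyltransferase complexes (0.55 ± 0.08, edgeR adjusted p = 0.000219), the NURF remodeller gene nurf-1 (0.37 ± 0.07, edgeR adjusted p = 0.00113) and the BRD7/BRD9-type gene swsn-9 (0.28 ± 0.07, edgeR adjusted p = 0.00588). The p300/CBP-like genes cbp-3 and cbp-2 had -0.28 ± 0.09 (edgeR adjusted p = 0.0137, lower) and -0.15 ± 0.07 (edgeR adjusted p = 0.0869, not called). For H4K8ac, epc-1, the Enhancer of Polycomb subunit gene of the NuA4/TIP60 complex, had 0.67 ± 0.07 (edgeR adjusted p = 7.19e-06). The SWI/SNF ATPase gene swsn-4 had 0.60 ± 0.08 (edgeR adjusted p = 2.49e-05), and bet-2, the other BET-type gene, 0.42 ± 0.06 (edgeR adjusted p = 5.89e-05), close to the 0.43 ± 0.07 of bet-1 in the same fit. swsn-2.2 was higher at 0.13 ± 0.05 (edgeR adjusted p = 0.0484), and pcaf-1, the GCN5/PCAF-type acetyltransferase gene, had 0.01 ± 0.06 (edgeR adjusted p = 0.859). Being listed for 1 mark does not show that the other mark is absent, since at least part of each of these genes lay under listed regions of both marks. No difference between the marks could be tested for them.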
